A study of Eulimnogammarus verrucosus and Eulimnogammarus cyaneus and Gammarus lacustris with 24 samples.

Results

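The subunits of the CCT chaperonin ring were described in 3 amphipod species kept at 1.5 or 12 °C. Members were the entries of the 3 deposited gene tables whose name was TCP1 or CCT followed by a subunit number, ignoring case. There were 20 such entries of 12688 in all, with 9 of 3920 in Eulimnogammarus verrucosus, 6 of 3674 in Eulimnogammarus cyaneus and 5 of 5094 in Gammarus lacustris. They carry 9 distinct names (cct-1, CCT2, CCT3, CCT4, CCT5, CCT6A, cct7, CCT8 and CCT8L2), and no entry was named TCP1. The family had been picked out because several of its members were higher at 1.5 °C in these same tables, so all values between the 2 temperatures are given here as a description and support nothing further.

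E. verrucosus and E. cyaneus live in Lake Baikal only, and G. lacustris is a widespread freshwater species. Wild-caught adults were held at 6 °C for 14 days, brought over about 6 days to 1.5 or to 12 °C and kept there for 1 month. No group stayed at 6 °C to the end, so a difference is that between the cold and the warm side of the same change. Each of the 6 groups had 4 libraries of whole-body mRNA. A library of E. verrucosus came from 3 pooled animals, one of the small E. cyaneus from about 13, and one of G. lacustris from about 11.

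CCT, also called TRiC, is the chaperonin of the eukaryotic cytosol. It is a barrel of a pair of stacked rings, each built from one copy of every subunit, which closes over a newly made protein and uses ATP to let it fold inside. Actin and tubulin depend on it, and prefoldin and phosducin-like proteins hand clients to it or tune its cycle. In yeast the subunits CCT1, CCT2, CCT4 and CCT5 lie on the side of the ring that binds ATP tightly, and CCT3, CCT6, CCT7 and CCT8 on the side that binds it weakly. Because one complex needs every subunit, their levels can be set beside each other per transcript length.

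Library totals were 10.2 to 15.4 M estimated reads in E. verrucosus, 9.11 to 14.2 M in E. cyaneus and 8.50 to 10.2 M in G. lacustris (M for mega). Levels below are CPM (counts divided by library size after TMM scaling, a correction for composition) when one gene is compared between libraries, and TPM (the same kind of share after division by transcript length) when genes are compared with each other. Reads per library could be given for 16 of the 20 entries, those for which a set of assembled transcripts reproduced exactly the mean in the authors' deposited table. CCT5 and CCT8L2 of E. verrucosus and CCT5 and CCT6A of E. cyaneus could not be matched to transcripts, and only the values of the authors' deposited table are given for these.

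The entries fell into a well-covered class and a trace class in every species, and the names in each class differed between species. Only entries with a CCT name were looked at. Whether the main transcript of a trace or unlisted subunit had no name or another name was not tested. The classes therefore describe the named entries and not which subunits a species expresses. The authors' deposited table gave mean normalised counts above 100 for CCT8L2, CCT2, cct7 and CCT6A in E. verrucosus, for cct-1 and cct7 in E. cyaneus, and for CCT5, CCT6A and CCT2 in G. lacustris. The other 11 entries had a mean between 0.322 and 16.7 in the authors' deposited table. The transcripts behind the well-covered entries were long, with 99.7% or more of the reads of each matched one on 1 transcript of 1937 to 2504 nt in the 2 Eulimnogammarus species. The trace entries with known transcripts rested on short pieces of 277 to 764 nt, except CCT2 of E. cyaneus, which had a transcript of 1901 nt and 100 reads over 8 libraries.

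**Figure D1:**
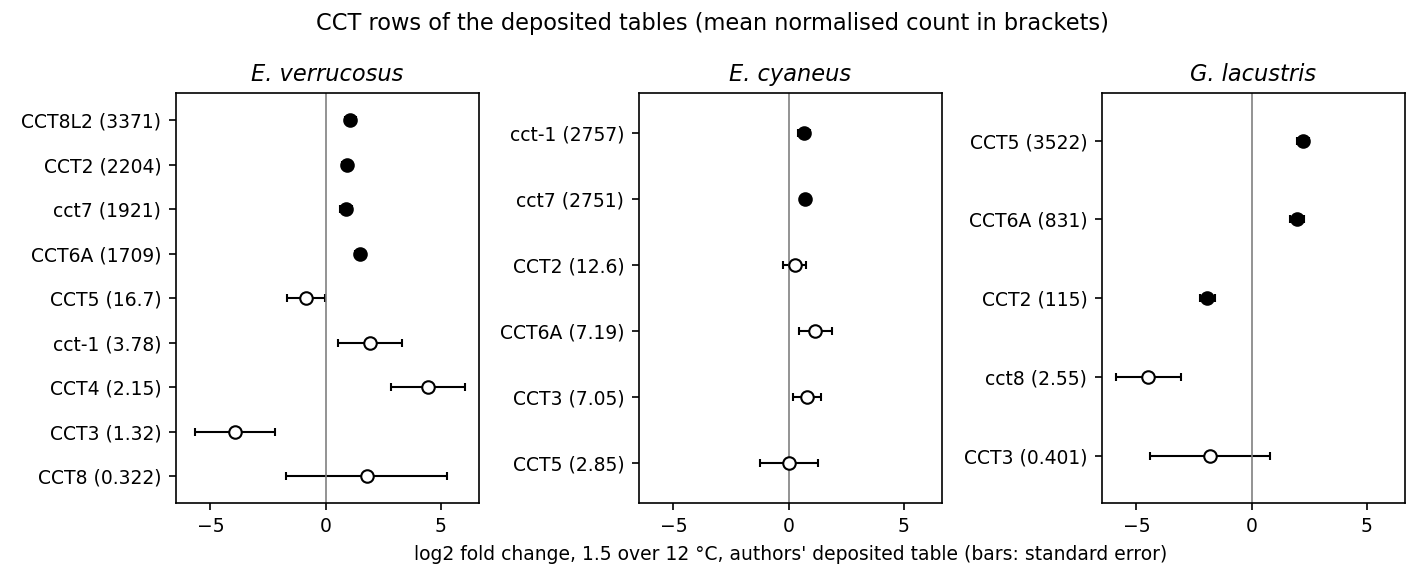
Log2 fold change (1.5 over 12 °C) with its standard error for the 20 CCT entries, as given in the authors' deposited table, ordered within each species by mean normalised count, which stands in brackets. Filled points have a mean above 100 and open points a mean below it. The filled points lie right of 0 in all but CCT2 of G. lacustris, and the open points have wide errors and lie on both sides.

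On the side of the ring that binds ATP tightly, cct-1, the name used for the first subunit, was well covered in E. cyaneus. Its level at 12 °C was 256, 163, 157 and 129.6 CPM, and at 1.5 °C it was 249.7, 286, 303 and 391 CPM. The groups overlapped, since the first library at 12 °C was above the first at 1.5 °C. The log2 fold change was 0.80 ± 0.26 (SE, n = 4 and 4) with an edgeR adjusted p of 0.198. In E. verrucosus cct-1 was a trace entry of 764 nt with 2, 0, 3 and 0 reads at 12 °C and 17, 4, 13 and 0 at 1.5 °C. It had 1 library without a read at 1.5 °C and 2 at 12 °C.

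CCT2, which sits beside CCT4 in the ring, was matched in all 3 species and had reads in every library. In E. verrucosus it stood at 128, 142, 86.2 and 120.0 CPM at 12 °C and at 232, 224, 219 and 225 CPM at 1.5 °C. All 4 cold libraries were above all 4 warm ones, and the SD was 23.9 CPM among the warm libraries and 5.18 among the cold ones. The log2 fold change was 0.91 ± 0.24 (SE), with an edgeR adjusted p of 0.104, and 0.90 ± 0.21 in the authors' deposited table, with an adjusted p of 0.00148. In E. cyaneus CCT2 had 13, 7, 10 and 7 reads at 12 °C and 12, 15, 19 and 17 reads at 1.5 °C. These are 0.967 ± 0.520 and 1.21 ± 0.127 CPM (SD, n = 4), which overlap, with a log2 fold change of 0.36 ± 0.39 (SE).

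In G. lacustris CCT2 went the other way. It stood at 46.1, 19.4, 22.6 and 17.6 CPM at 12 °C and at 4.85, 5.26, 3.02 and 3.73 CPM at 1.5 °C. All cold libraries were below all warm ones, with a log2 fold change of -2.64 ± 0.38 (SE) and an edgeR adjusted p of 4.40e-04. The authors' deposited table gives -1.93 ± 0.32 (SE) on its own scale, which is described below.

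CCT4 was listed by name only in E. verrucosus, as 2 pieces of 328 and 277 nt. It had no read in the 4 libraries at 12 °C and 11, 2, 8 and 1 reads at 1.5 °C. Set against a floor of 3 reads over the warm group, this is at least 6.18-fold higher at 1.5 °C, a bound for counting error only. The authors' deposited table gives it an adjusted p of 0.0992.

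CCT5 was well covered in G. lacustris only, where it was the most abundant of the named entries and rested on 1 transcript of 2300 nt. It stood at 139.7, 188, 140.3 and 202 CPM at 12 °C and at 484, 452, 620.5 and 489.7 CPM at 1.5 °C. The lowest cold library was thus above the highest warm one, with a log2 fold change of 1.61 ± 0.22 (SE) and an edgeR adjusted p of 3.76e-04. In E. verrucosus the authors' deposited table lists CCT5 at a mean of 16.7 with a log2 fold change of -0.86 ± 0.82 (SE). In E. cyaneus the authors' deposited table lists it at a mean of 2.85 with a log2 fold change of 0.03 and an unadjusted p of 0.982. Neither entry passed the threshold there, with an adjusted p of 0.747 in the authors' deposited table of E. verrucosus and none given in E. cyaneus.

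On the side that binds ATP weakly, CCT3 was a trace entry in all species. It had 3, 2, 1 and 3 reads at 12 °C and none at 1.5 °C in E. verrucosus, which is at least 3.56-fold lower in the cold against the floor of 3 reads over the group. In G. lacustris it had 2, 1, 1 and 0 reads at 12 °C and none at 1.5 °C, too few to give a fold. In E. cyaneus it had 3, 4, 6 and 5 reads at 12 °C and 5, 12, 8 and 18 at 1.5 °C, with overlapping groups. The authors' deposited table gives this last entry a log2 fold change of 0.79 ± 0.63 (SE).

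CCT6A, the zeta subunit, had the largest fold change of the well-covered subunits in E. verrucosus. It stood at 75.0, 77.3, 51.5 and 74.6 CPM at 12 °C and at 201, 166, 210.4 and 214 CPM at 1.5 °C. The groups did not overlap, and the log2 fold change was 1.51 ± 0.24 (SE) with an edgeR adjusted p of 0.00849. The third library at 12 °C was the lowest for CCT2, CCT6A and cct7, the matched well-covered subunits of this species. In G. lacustris CCT6A stood at 30.8, 52.1, 34.5 and 59.5 CPM at 12 °C and at 113, 113, 134 and 117 CPM at 1.5 °C. The groups again did not overlap, with a log2 fold change of 1.43 ± 0.26 (SE) and an edgeR adjusted p of 0.00111. In E. cyaneus the authors' deposited table lists CCT6A at a mean of 7.19, with a log2 fold change of 1.16 ± 0.73 (SE) and an adjusted p of 0.402.

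A pair of long assembled forms made up CCT6A of G. lacustris, and they were not spread alike over the libraries. The form of 2223 nt held 90.6% of its reads and was present in all 8 libraries, with 232 to 621 reads at 12 °C and 859 to 1044 at 1.5 °C. The form of 2190 nt held 9.32% and had 0, 6, 0 and 0 reads at 12 °C against 327, 116, 111 and 0 at 1.5 °C. Salmon shares out reads between such similar forms, so this division is an estimate, and the library without the second form is one of the cold ones.

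The eta subunit cct7 was well covered in both Eulimnogammarus species. In E. verrucosus it stood at 131, 109, 70.4 and 108 CPM at 12 °C and at 194, 194, 175 and 212 CPM at 1.5 °C. In E. cyaneus it stood at 189.9, 192, 169 and 149 CPM at 12 °C and at 276, 317, 327 and 319.6 CPM at 1.5 °C. In both species all cold libraries were above all warm ones. The log2 fold changes were 0.89 ± 0.26 and 0.82 ± 0.18 (SE), with edgeR adjusted p of 0.148 and 0.0807. The authors' deposited table gives 0.87 and 0.73, with adjusted p of 0.0302 and 1.44e-04. G. lacustris had no entry of this name.

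CCT8 was a trace entry. It had 3 reads in 1 cold library of E. verrucosus and none elsewhere, and in G. lacustris cct8 had 2, 11, 5 and 7 reads at 12 °C and none at 1.5 °C. The latter is at least 8.54-fold lower at 1.5 °C against the floor of 3 reads over the group. CCT8L2, a name that in human belongs to a CCT8-like gene, was listed in E. verrucosus only and had the highest mean there. The authors' deposited table gives it a mean of 3371 and a log2 fold change of 1.06 ± 0.23 (SE), with an adjusted p of 4.00e-04.

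**Figure D2:**
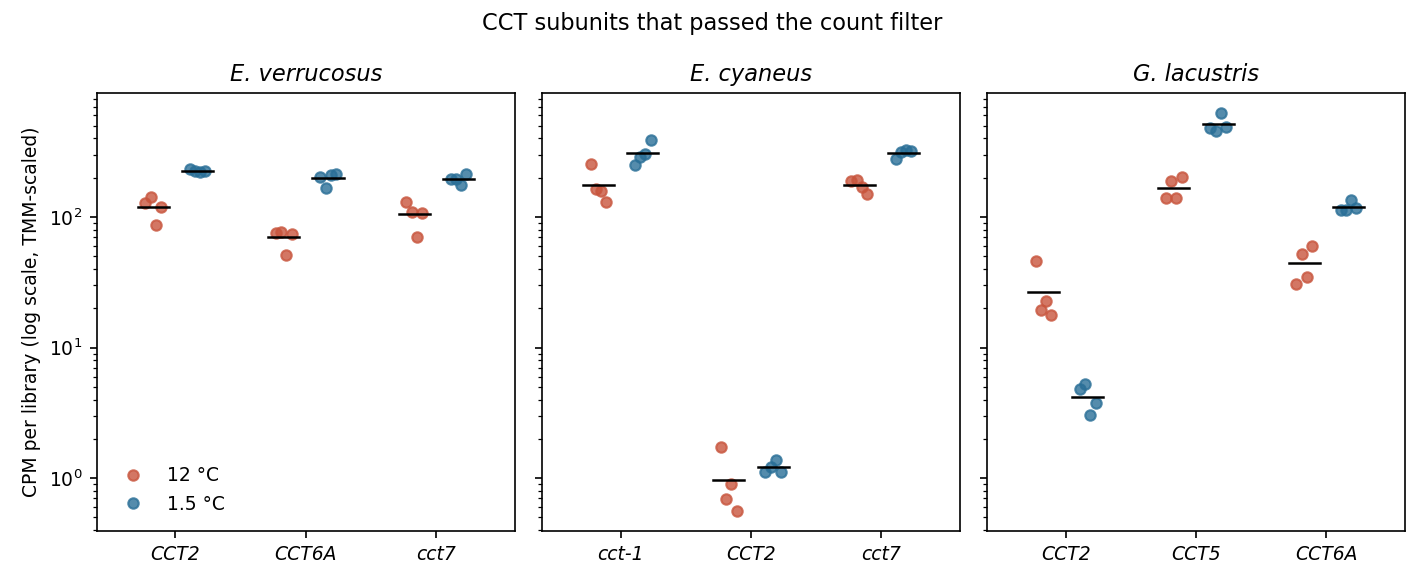
CPM per library (log axis, TMM-scaled) of the 9 CCT entries that passed the count filter, with 12 °C in red, 1.5 °C in blue and group means as bars (n = 4 libraries each). The cold libraries lie above the warm ones without overlap in 6 entries and below them in CCT2 of G. lacustris, and the groups overlap in cct-1 and CCT2 of E. cyaneus.

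Of the 16 matched entries, 9 passed edgeR's filter on low counts, 3 in each species. In E. verrucosus 1 of 3 was called higher at 1.5 °C (CCT6A), where 1.33% of 23901 features tested were called higher, 2.02% lower and 3.35% in either direction. In E. cyaneus 0 of 3 were called by edgeR, where 0.312% of 20528 features were called higher, 0.317% lower and 0.628% in either direction, while DESeq2's Wald test on the same counts called 1, cct7. Of these 3, cct-1 and cct7 had an unadjusted p under 0.05, at 0.0107 and 9.87e-04. In G. lacustris 2 of 3 were called higher (CCT5 and CCT6A) and 1 lower (CCT2), where 9.9% and 30.2% of 27029 features were called in those directions and 40.1% in either. The median log2 fold change of the 3 entries was 0.91, 0.80 and 1.43 in the order above, beside -0.03, 0.01 and 0.11 over all features tested. Over features with a matched name, as these entries are, the median was -0.0004, 0.07 and -0.54. In the authors' deposited tables, 4 of 7 entries with an adjusted p were called higher in E. verrucosus (CCT2, CCT6A, cct7 and CCT8L2), where 2.7% of names were, with 1.99% lower and 4.69% in either direction. In E. cyaneus 1 of 5 was called higher in the authors' deposited table (cct7), where 2.24% of names were, with 4.03% lower and 6.27% in either direction. In G. lacustris the authors' deposited table calls 2 of 4 higher and 2 of 4 lower (CCT2 and cct8), where 25.1% and 33.8% of names were, and 58.9% in either direction. With groups of 4 and in CPM, all cold libraries lay above all warm ones for 3 of 3, 1 of 3 and 2 of 3 entries. Of all features tested 4.41%, 5.81% and 14.4% did. All cold libraries lay below all warm ones for 0, 0 and 1 entries, where 4.78%, 4.41% and 29.8% of features did. These shares used the comparison the family was picked from.

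In G. lacustris the fold changes of all features fell into 2 separate peaks. The log2 fold changes of the features tested had a peak slightly above 0 and another near -3, with 3.55% of features between -2 and -1. CCT5 and CCT6A lie on the upper edge of the first peak, and CCT2 lies in the second. Features below -1.5 numbered 8053, which is 29.8% of those tested and 47.9% of those with a matched name, against 4.53% of features in E. verrucosus and 1.97% in E. cyaneus. Together they held 18.6, 11.8, 14.6 and 10.4% of the reads of the libraries at 12 °C and 2.35, 2.72, 1.78 and 1.94% at 1.5 °C. The cut at -1.5 was chosen after the values were seen. Whether these features, CCT2 among them, came from the animals or from another source was not tested. Fewer cells of a type also cannot be told apart from less RNA per cell in whole-body samples.

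**Figure D3:**
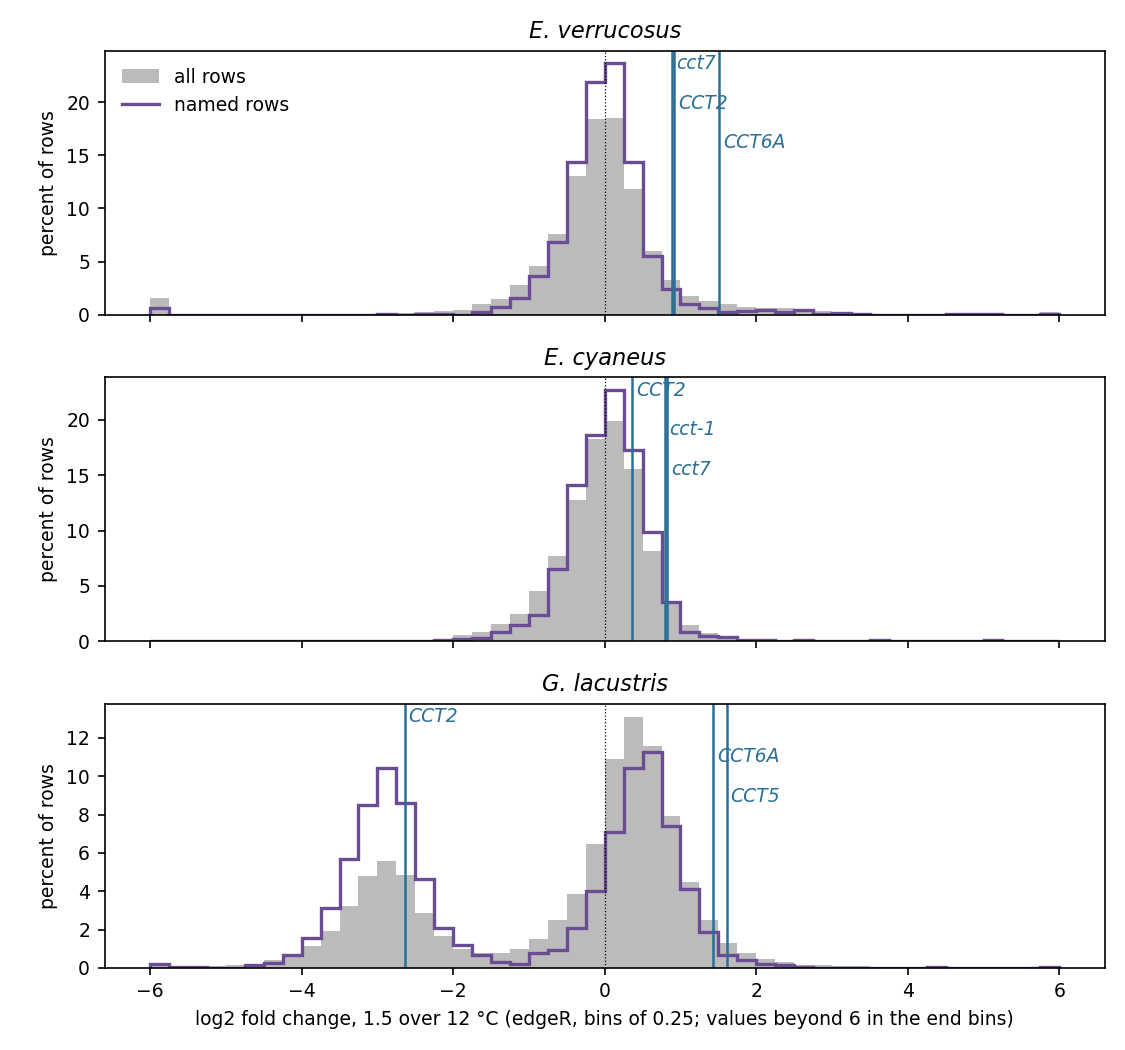
Distribution of edgeR log2 fold changes (1.5 over 12 °C) in bins of 0.25, as a percentage of all features tested (grey) and of features with a matched name (outline), with the CCT entries as vertical lines. E. verrucosus and E. cyaneus have 1 peak near 0 with the CCT entries on its upper side, and G. lacustris has a second peak near -3 that holds CCT2.

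The scale of the authors' deposited fold changes differs from TMM in this species. Size factors recovered from the deposited means place log2 fold changes on average 0.66 above the TMM scale in G. lacustris, and differ from it by -0.03 and -0.11 in E. verrucosus and E. cyaneus. With these factors in edgeR, 57.3% of the calls in G. lacustris were higher at 1.5 °C instead of 24.7%, and 32.1% instead of 49.6% in E. cyaneus. On that scale CCT5, CCT6A and CCT2 of G. lacustris had log2 fold changes of 2.23, 2.04 and -1.92, so no entry changed direction.

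Differences between species were tested for the names matched in both, with an interaction term over all such names. Between E. verrucosus and G. lacustris the log2 fold change of CCT2 differed by 3.56 (95% interval 2.70 to 4.41, edgeR adjusted p 1.77e-05), where 43.6% of 778 names differed. Between E. cyaneus and G. lacustris it differed by 3.02 (1.96 to 4.08, edgeR adjusted p 1.40e-04), where 44% of 748 names differed. Both comparisons share the G. lacustris libraries. CCT6A did not pass between E. verrucosus and G. lacustris, with a difference of 0.08 and an interval of -0.62 to 0.77. Between the 2 Eulimnogammarus species cct7 differed by 0.07 (-0.55 to 0.69), CCT2 by 0.54 (-0.27 to 1.35) and cct-1 by 1.45 (-0.37 to 3.26), and none passed where 1.57% of 699 names did. The name shared by 2 species need not stand for the same gene copy, since it comes from the closest known protein. CCT2 of G. lacustris lies in the second peak of fold changes, whose source was not tested.

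Mean levels per length of the matched, well-covered entries were closer to each other in the Eulimnogammarus species than in G. lacustris. The subunits compared were not the same in each species, so this is no comparison of the ring between species. CCT8L2 of E. verrucosus was not matched and has no TPM. CCT2 of G. lacustris lies in the second peak of fold changes, whose source was not tested. In E. verrucosus the mean TPM over 8 libraries was 91.9 ± 44.0 for CCT2, 81.7 ± 36.9 for cct7 and 68.8 ± 43.8 for CCT6A (SD), and neighbours in this order differed by less than their spread. In E. cyaneus cct7 had 123 ± 49.8 TPM and cct-1 93.8 ± 41.6, which also overlap. These SDs include the difference between temperatures. Within each library of E. verrucosus CCT2 was above CCT6A, by 1.09 to 1.88 times. In E. cyaneus cct7 was 0.94 times cct-1 in the first library at 12 °C and 1.05 to 1.52 times in the others. In G. lacustris CCT5 had 114 ± 65.3 TPM, CCT6A 28.6 ± 14.2 and CCT2 6.01 ± 5.42. CCT5 was above CCT6A in each of the 8 libraries, by 3.10 to 4.53 times. The matched trace entries had mean TPM of 0.280 to 1.37.

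Ratios of TPM within a library do not depend on how libraries are scaled. In E. verrucosus CCT2 over cct7 was 1.12 ± 0.147 at 12 °C and 1.13 ± 0.0714 at 1.5 °C (SD, n = 4). CCT2 over CCT6A was 1.80, 1.88, 1.74 and 1.68 at 12 °C and 1.21, 1.44, 1.09 and 1.11 at 1.5 °C. The groups of this last ratio did not overlap, so CCT6A came nearer to CCT2 in the cold. In E. cyaneus cct7 over cct-1 was 1.33 ± 0.269 at 12 °C and 1.33 ± 0.189 at 1.5 °C. In G. lacustris CCT5 over CCT6A was 3.65 ± 0.444 at 12 °C and 4.17 ± 0.278 at 1.5 °C, with overlapping values. CCT6A over CCT2 was 0.609, 2.29, 1.37 and 3.10 at 12 °C and 19.9, 18.6, 37.9 and 26.9 at 1.5 °C.

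Libraries of one temperature also differed among themselves, and deviations from the temperature mean do not use the comparison of temperatures. In E. verrucosus the deviations of the 3 subunits in log2 CPM had Pearson r of 0.82 (CCT2 with CCT6A), 0.85 (CCT2 with cct7) and 0.76 (CCT6A with cct7) over 8 libraries. These rest on the third library at 12 °C, without which they were 0.12, 0.05 and -0.02. In E. cyaneus cct-1 and cct7 had r of 0.72, and 0.57 to 0.86 with any 1 library left out. In the same species cct-1 and CCT2 had r of 0.79, which was 0.28 without the first library at 12 °C. CCT2 and cct7 had r of 0.56, which was 0.24 without the fourth library at 12 °C. In G. lacustris CCT5 and CCT6A had r of 0.92, and 0.89 to 0.98 with any 1 library left out. CCT2 had r of -0.79 with CCT5 and -0.82 with CCT6A, and these were -0.95 to -0.73 and -0.96 to -0.65 with any 1 library left out. The libraries share depth and scaling, and the median r over all pairs of matched names was 0.04, 0.06 and 0.06 in the 3 species.

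**Figure D4:**
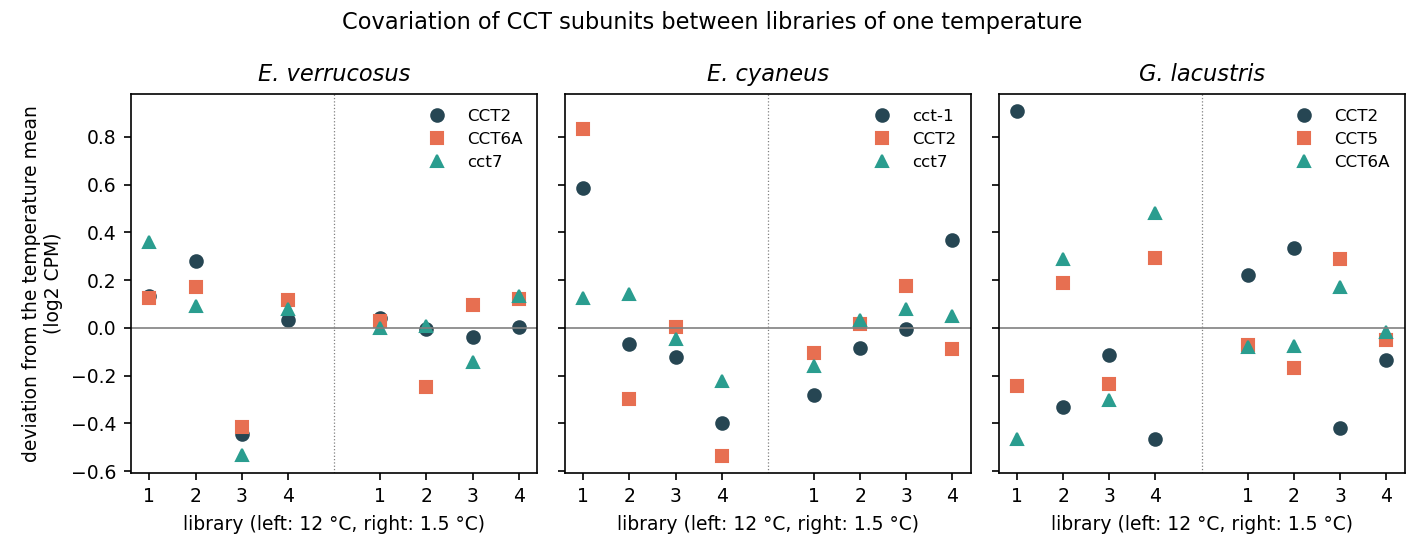
Deviation of each CCT subunit from the mean of its temperature group, in log2 CPM, for each library (replicate number on the x axis, 12 °C left and 1.5 °C right of the dotted line). In E. verrucosus all 3 subunits are lowest in library 3 at 12 °C, and in G. lacustris CCT2 lies on the other side of 0 from CCT5 and CCT6A except in library 3 at 12 °C and library 4 at 1.5 °C.

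The names whose deviations were most like the mean of the 3 tested CCT entries had r of 0.92 to 0.98 in E. verrucosus (FBXO31, AAMP, NFAT5, SOAT1 and HADH). In E. cyaneus they had r of 0.98 to 0.99 (ANXA11, GUF1, RIOK3, PLRG1 and STT3A), and in G. lacustris r of 0.87 to 0.97 (C1orf27, SESN1, RSL1D1, PLA2G4A and DHRS11). They are the top 5 of 1509, 1376 and 1821 names over 8 libraries each, of which 94, 221 and 28 had r above 0.7. In G. lacustris that mean joins CCT2 with CCT5 and CCT6A, which run against it, so likeness to it is not likeness to a single subunit. In E. verrucosus all 3 entries had their lowest deviation in the third library at 12 °C. These were -0.44 for CCT2, -0.41 for CCT6A and -0.53 for cct7. Whether the names stayed alike without that library was not tested. In E. cyaneus the mean includes the trace entry CCT2, with 7 to 19 reads per library and deviations of -0.54 to 0.83. Of these 15 names, SESN1 and RSL1D1 were called higher at 1.5 °C by edgeR, with log2 fold changes of 2.36 and 0.86 and adjusted p of 0.00120 and 0.0115. SESN1, sestrin 1, is a stress-responsive regulator of growth signalling, and RSL1D1 is a nucleolar protein.

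Names of CCT's clients and partners were called in E. verrucosus at shares near the background. The lists of prefoldin, phosducin-like proteins, tubulin cofactors, actins, tubulins, other clients, chaperonin relatives and partners held 44 names there. Name patterns also took in actin-related proteins, actinins and gamma-tubulin complex proteins. Of the 15 names that passed the filter, edgeR called 0, where 3.35% of all features were called, and 1 had an unadjusted p under 0.05: hspa8. This gene, the constitutive Hsp70 that works upstream of CCT, had a log2 fold change of 0.91 ± 0.30 (SE) and an edgeR adjusted p of 0.228. The authors' deposited table calls 2 of 39 higher, where 2.7% of all names were: hspa8 at 0.89 and TUBB4A, a beta-tubulin with a mean of 9.04, at 5.08. HSPE1, the co-chaperonin of the mitochondrial ring, had 0.54 in edgeR and did not pass. HSP90AA1 had -1.34 ± 0.62 (SE) in the authors' deposited table and did not pass. The median over the lists was 0.13 in edgeR.

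In E. cyaneus the client and partner names that were called were lower at 1.5 °C. Of 44 names, 17 were tested in edgeR and 1 was called lower, betaTub56D, the main beta-tubulin of Drosophila. It had 71.8 CPM at 12 °C and 24.2 at 1.5 °C, a log2 fold change of -1.57 ± 0.22 (SE) and an edgeR adjusted p of 0.0157. The authors' deposited table calls 0 of 32 higher and 7 lower, where 2.24% and 4.03% of names were. These are betaTub56D at -1.63, TUBB at -2.22, ACTG1 at -1.39, PDCL3 at -1.02, actb at -0.97, ACTB at -0.72 and PFDN4 at -0.51. PDCL3 is a phosducin-like protein that binds CCT, and PFDN4 is a prefoldin subunit. HSP90AA1 and the tubulin cofactors did not pass.

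Levels of muscle and yolk names are given beside these values. Of 6 muscle names tested in E. cyaneus edgeR called 0, and the authors' deposited table calls 5 of 9 lower. The summed level of the 10 matched muscle names of 13 was 12142 to 31494 CPM at 12 °C and 6564 to 10474 at 1.5 °C, without overlap, and most of it came from Mlc2, Unc-89 and TNNI1. In each library 1 to 3 of the 10 had no read. The yolk name Vg, vitellogenin, was at 105 to 424 CPM at 12 °C and 952 to 1796 at 1.5 °C, with an edgeR log2 fold change of 2.62 and an adjusted p of 0.0287. The part of these tissues in the CCT values was not tested. In E. verrucosus the sum of 11 matched muscle names of 14 was 24026 to 86452 CPM at 12 °C and 13852 to 55602 at 1.5 °C, and in G. lacustris that of 12 of 17 was 10054 to 12161 and 7491 to 10484, with overlap in both. EdgeR called 0 of 11 muscle names tested in E. verrucosus. In G. lacustris it called 5 of 8 lower, where 30.2% of all features were. The authors' deposited table calls 1 of 14 lower in E. verrucosus, and 1 of 16 higher and 5 lower in G. lacustris. Vg was not matched in these 2 species. It had log2 fold changes of 0.01 and 0.59 in the authors' deposited table and did not pass. The part of these tissues in the CCT values was not tested there either.

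In G. lacustris the list names that edgeR called were all lower at 1.5 °C. Of 36 names, 21 were tested in edgeR, 0 were called higher and 8 lower, where 9.9% and 30.2% of all features were. The share called lower is near that background, and 47.9% of features with a matched name lay below -1.5. The 8 were VBP1 (-3.17) and PFDN2 (-2.55) of prefoldin, the phosducin-like PDCL (-2.25), the actin ACTC1 (-2.65), the actin-related ACTR1A (-2.98), the tubulins TUBA1C (-2.50) and tubb4b (-1.95), and the client kinase PLK1 (-3.07). Their log2 fold changes were below -1.5, as was that of CCT2. Across libraries of one temperature their deviations had r of 0.47 to 0.94 with CCT2, with a median of 0.86, and were negative with CCT5 (-0.90 to -0.28) and CCT6A (-0.89 to -0.46) in 8 of 8. The 13 list names that edgeR did not call had a median r of -0.39 with CCT2 and 0.39 with CCT5. Per M reads of all features below -1.5, CCT2 had 157 to 201 at 12 °C and 159 to 214 at 1.5 °C. These features were chosen by the same fold change and include CCT2, so a steadier value between the temperatures was fixed in advance. No conclusion about CCT2 is drawn from it. Muscle names below -1.5 had r with CCT2 of 0.63 (TNNT2), 0.03 (MYH3) and -0.19 (TpnC47D). Whether the 8 names were more like CCT2 than the other features below -1.5 was not tested.

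On the scale of the authors' deposited table, 11 of 36 list names were called higher in G. lacustris and 9 lower, where 25.1% and 33.8% of all names were, so these shares are near the background. The higher ones were PFDN4 (0.75), PFDN5 (0.99), TBCA (1.30), ACTB (0.92), ACTG1 (1.32), ACTG2 (0.99), ACTL6A (1.08), ACTN4 (1.38), ACTR10 (1.11), TUBA3C (0.98) and GNB4 (0.82). The lower ones were the 8 above and TBCD (-1.54), a tubulin cofactor. Of the 11 higher ones 10 were tested in edgeR, where their log2 fold changes were 0.26 to 0.77 and none passed. The nearest were ACTL6A and TBCA, with edgeR adjusted p of 0.0564 and 0.0687. CCT5 and CCT6A exceeded all of them on both scales.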

How the data were processed

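Whole-body RNA-seq of 3 amphipod species at 1.5 and 12 °C was used, with 4 libraries per group grouped by their labels. Assembly with Trinity, cd-hit-est and TransRate is given in the series' design text, and Salmon 1.1.0 and DESeq2 1.26.0 in the submitters' processing notes. Per the file headers, the authors deposited estimated counts and TPM per transcript and library. The authors' deposited tables hold, per the file headers, a mean normalised count per name (a signal), a log2 fold change, a Wald score and p-values. Number of series columns not used: 0.

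The files pair no name with a transcript. Deposited means equalled, within a relative 1e-13, the mean of summed and rounded estimated counts divided by size factors and by effective length relative to its geometric mean over libraries. The size factors were solved by least squares from starting values found while the files were explored, and longer searches made then gave the sets of some names. This matched 2733 of 3920, 2707 of 3674 and 3226 of 5094 names in E. verrucosus, E. cyaneus and G. lacustris, and 0 of the means shifted by a relative 1e-05 matched. CCT8 of E. verrucosus had several matching transcripts with the same reads, so only its reads are known.

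Estimated counts were rounded, matched names summed to 1 feature, and other transcripts kept. Temperatures were compared per species with edgeR 4.0.16 under R 4.3.3 (quasi-likelihood test; TMM, filterByExpr, Benjamini-Hochberg over all features, threshold 0.05). Log2 CPM used a prior count of 2. The edgeR fit was run on simulated counts with as many features raised as lowered. Those simulations do not cover an uneven shift such as that in G. lacustris. DESeq2 1.42.0, RLE factors, no filter, single transcripts, a replicate block, left-out libraries and, added after seeing the data, the authors' size factors were alternatives. The members and lists were chosen with earlier results of these data known. Named are all CCT entries, list names called by edgeR or in the authors' tables with up to 3 others per list, and the 5 names most alike per species. Libraries are pools of different animals as far as the labels say, and bounds cover counting error only. No sequences or genome coordinates were used here.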

Additional observations from a re-analysis of the deposited data

Results flagged for a closer look

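The third library of E. verrucosus at 12 °C stood apart for CCT6A, at 51.5 CPM against 74.6 to 77.3 in the others. This exceeds a limit that chance passes in about 1 of 20 groups of 4. The check was made for every tested entry at each temperature and flagged this group alone, so 1 flag is near what chance gives. The log2 fold change of CCT2 differed between E. verrucosus and G. lacustris by 3.56 and between E. cyaneus and G. lacustris by 3.02. The interaction test gave edgeR adjusted p of 1.77e-05 and 1.40e-04. Of all names tested 43.6% and 44% differed in these comparisons, which share the G. lacustris libraries. CCT2 is a trace entry in E. cyaneus and lies in the second peak of fold changes in G. lacustris.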

How the results depend on the processing

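With DESeq2's Wald test, calls rose to 1375 features and 3 CCT entries in E. verrucosus (800 and 1 in edgeR) and to 864 and 1 in E. cyaneus (129 and 0). Replicate numbers did not pair the libraries, since same-numbered libraries had r of -0.21 to 0.11 in their deviations, and with them as a replicate block 186 features and 0 CCT entries were called in E. verrucosus, where CCT6A had an edgeR adjusted p of 0.14, and 48 features in E. cyaneus. Without the filter 17761 features were called in G. lacustris (10840 with it), and the interaction called 1 CCT entry between the Eulimnogammarus species and 2 in each pair with G. lacustris, the added ones being trace entries. The authors' size factors gave 18006 features and a median CCT log2 fold change of 2.04 in G. lacustris and turned the difference of CCT6A between E. verrucosus and G. lacustris to -0.55. With each library left out in turn, 40 to 199 features were called in E. cyaneus, 7 to 16 names differed between the Eulimnogammarus species, cct7 differed there by -0.082 to 0.19 and CCT6A between E. verrucosus and G. lacustris by -0.13 to 0.22. The number of CCT entries called stayed at 1, 0 and 3. By group means instead of all libraries, CCT2 over CCT6A was 1.77 at 12 °C in E. verrucosus and CCT5 over CCT2 was 102 at 1.5 °C in G. lacustris. Of the values of single entries under an alternative, 234 kept direction and side of the threshold, 3 gained the call, 1 lost it and 8 turned direction. Depth limits the 11 trace entries, of which CCT2 of E. cyaneus alone was matched and passed the filter. Without the filter edgeR called 4 CCT entries in G. lacustris instead of 3.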
